A study of Mus musculus with 18 samples.

Results

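Marrow stromal cells from young and old mice were compared gene by gene in 12 of the 18 RNA-sequencing libraries of the series, the 6 labelled young against the 6 labelled old. Of the 27179 genes in the table, listed by Entrez gene number, 14353 averaged 10 or more normalized counts across the 18 libraries and were tested. The labels give the cells as primary bone marrow mesenchymal stem cells (MSCs) of C57BL6 mice without treatment, and the study's methods give male donors, a few weeks old for the young group and well over a year old for the old group. Both groups were flushed from the long bones of the hind legs, selected by adherence to plastic, expanded to a low passage number and cultured for 7 days. The other 6 libraries, called rejuvenated old, are old MSCs that shared medium with young MSCs across a porous membrane. They entered the estimate of the spread, and their values are given only side by side. Rejuvenated old replicate 1 stood apart from its group, and a fit of the young and old libraries alone called 12396 genes in place of 12297. The titles call the libraries biological replicates, but how many mice gave the cells of each group was not stated, so the p-values measure the spread between these libraries, which may be technical. Donor age, donor, culture history, any difference in genetic background and the Y-linked difference described below cannot be told apart in this design.

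MSCs of the marrow are fibroblast-like cells that can form bone, fat and cartilage. They build extracellular matrix, hold blood stem cells in place through secreted factors such as the chemokine Cxcl12, and release growth factors that act on vessels. In culture they are recognised by surface proteins such as CD44 and Sca-1 (gene Ly6a) and by the lack of blood and endothelial markers such as CD45 (Ptprc), CD34 and CD31 (Pecam1). Transcription factors of the HOX family keep a record of the body position from which a fibroblast came.

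The young libraries held 22936251 to 25648769 reads and the old libraries 24965971 to 29559194. Values are normalized counts, the reads of a gene divided by a factor for the depth of the library, so 1 read was worth between 0.909 and 1.12. They are not corrected for gene length, and levels are compared within a gene. Means are given ± SD (n = 6 libraries per group). Fold changes are young minus old on the scale of log2(normalized count + 1), with standard errors (SE) and adjusted p-values from limma. Replicate libraries varied with a biological coefficient of variation of 5.37% for young and 7.05% for old.

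The sex-linked genes did not match between the groups, although the methods name male donors for both. Ddx3y, a Y-linked RNA helicase, had a lowest, median and highest value of 0, 0 and 2.06 in young libraries and 1591, 1781 and 1871 in old libraries. Uty was at 0 in all 6 young libraries and at 632 ± 59.1 in old libraries, at least 200.4-fold lower in young against a floor of 3 reads per library. Kdm5d and Eif2s3y had means of 0.172 and 0.521 in young against 884 and 2069 in old libraries. Xist, the RNA of the inactive X chromosome, was low in both groups, at 34.4 ± 8.30 and 6.11 ± 4.58. The young libraries thus held almost no reads of the 4 Y-linked genes and few of Xist. Nnt, a mitochondrial enzyme gene that carries a deletion in C57BL/6J mice, was read in both groups, at 2297 ± 67.6 and 1414 ± 82.1. Young and old mean from here on the libraries so labelled.

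At the RNA level, the tested surface markers used to define these cells differed between the groups. Cd34 RNA in young and Ptprc RNA in old libraries go against the label. The study's flow cytometry measured protein and found no significant age difference, with CD44 and Sca-1 present and CD34, CD45 and CD31 absent. Cd44 was read in all libraries and was lower in young, 2137 ± 86.8 against 2954 ± 189 (log2 fold change -0.47, SE 0.06, adjusted p = 8.83e-08). Ly6a was higher in young, with a lowest, median and highest value of 19881, 23277 and 33910.0 against 5629, 5778 and 7488 in old. Cd34 (Entrez gene 12490, chr1:194938821-194961292 in build GRCm38.p6), a marker of blood stem cells, endothelium and some fibroblasts, had 6787, 7008 and 7191 in young libraries and 19.4, 22.9 and 28.0 in old libraries. Every young library thus lay above every old library for Cd34 (log2 fold change 8.19, SE 0.41, adjusted p = 9.40e-15). In a fit of the 12 young and old libraries alone the SE of Cd34 was 0.07. Ptprc, the leukocyte antigen CD45, was at 0 in all 6 young libraries and at 162 to 208 in old ones, at least 56.7-fold lower in young. Pecam1 was too low to test, at 17.0 ± 4.51 and 6.56 ± 2.87.

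**Figure D1:**
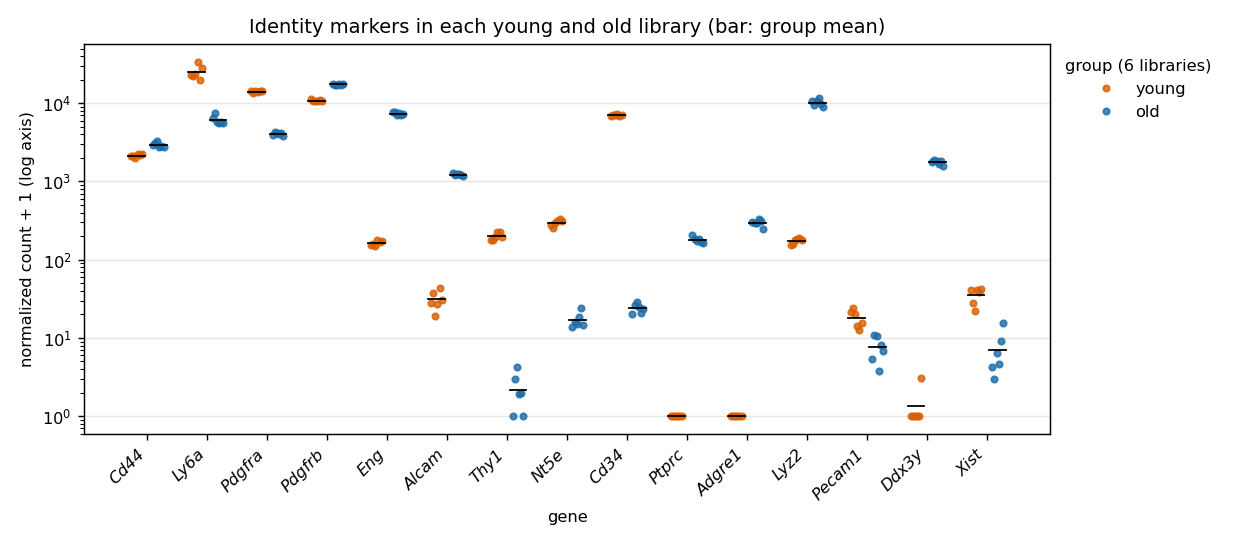
Normalized count + 1 (log axis) of 15 identity markers in each of the 6 young and 6 old libraries, with a bar at the group mean. Cd34 lies at 6787 to 7191 in young and at 19.4 to 28.0 in old libraries, while Ptprc and Adgre1 are at 0 in all young libraries.

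Most genes differed between the groups. At an adjusted p under 0.05, 12297 of 14353 genes passed (85.7%), 5967 higher in young (41.6%) and 6330 lower in young (44.1%). The young and old libraries did not overlap for 10608 genes (73.9%). Because a call by the test alone was the rule, lists are described by members that also differed at least 2-fold. By that limit 1975 genes were higher in young (13.8%) and 2598 lower (18.1%), which is the background for every list. In any list, a member near 0 in one group passed the filter on low values through the other libraries and so had to differ, and counts of tested members are descriptions with that limit. The median of the absolute log2 fold change over all tested genes was 0.60, and 577 called genes lay 5 or more log2 units apart, 203 of them higher in young.

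Among genes outside the predicted ones, with a mean of 100 or more in the higher group and libraries that did not overlap, the largest rises on the scale of log2(normalized count + 1) were in Angptl7, Tspan11, Ifi202b, Ptgis and Msln. Angptl7, a secreted angiopoietin-like protein, was at 8914 ± 427 in young and 0.820 ± 0.743 in old libraries, a ratio of reads of 10716 (95% counting interval 4592 to 33005). Tspan11, a tetraspanin, was at 4937 ± 157 against 0.652 ± 0.792. Ifi202b, an interferon-inducible gene that is known to vary between mouse strains, was at 6649 ± 748 against 1.44 ± 1.45. Ptgis, the prostacyclin synthase, was at 7856 ± 420.3 against 1.80 ± 1.09. All old libraries together held 5, 4, 9 and 11 reads of them in that order.

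By the same conditions and on the same scale the largest falls were in Sfrp1, Gpx3, Gria3, Aplp1 and Kng1. The added count of 1 lowers the fold of genes near 0, so the order by ratio of reads differs. Sfrp1, a secreted Wnt antagonist, had a lowest, median and highest value of 2.18, 4.16 and 46.3 in young and 55480.3, 56483 and 57134 in old libraries (log2 fold change -12.88, SE 0.38, adjusted p = 5.15e-19). The highest young value of Sfrp1 was that of replicate 6, and without that library the log2 fold change was -13.41. Gpx3, a secreted glutathione peroxidase, was at 31.7 ± 29.4 in young against 71144 ± 2430.2 in old. The young mean of Gpx3 rests on replicate 6 at 91.6, and without that library the log2 fold change moved from -11.39 to -11.75. Gria3, a subunit of glutamate receptors, was at 0.338 ± 0.523 against 3234 ± 96.6. Aplp1, an amyloid precursor-like membrane protein, was at 0 in all young libraries and at least 710.1-fold lower in young, with 2240.4 ± 70.0 in old. Kng1, a kininogen, was at 0.343 ± 0.841 against 2574 ± 71.8.

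Stromal surface and lineage markers moved in both directions. Of 26 tested members, 9 were at least 2-fold higher and 4 at least 2-fold lower in young, and the list's median log2 fold change was 0.45 (median over all genes -0.02). Thy1 (CD90) was at 198 ± 23.1 in young and 1.19 ± 1.24 in old libraries, and Nt5e (CD73) at 295 ± 26.7 and 15.9 ± 3.83. Pdgfra, a receptor of platelet-derived growth factor, was higher in young at 14051 ± 194 against 4075 ± 185. Its relative Pdgfrb was lower in young at 10773 ± 231 against 17355 ± 231. Eng (CD105), a co-receptor for TGF-beta, went the other way from Thy1, at 163 ± 11.3 in young and 7340.3 ± 292 in old libraries (log2 fold change -5.48, SE 0.04, adjusted p = 1.02e-29). Alcam (CD166) was at 30.1 ± 8.66 and 1226 ± 33.1, and Vcam1 at 928 ± 92.0 and 6408 ± 240.0. Lepr, the leptin receptor that marks stromal cells around marrow sinusoids, was at 36.2 ± 5.11 in young and 378 ± 31.8 in old libraries.

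Most macrophage markers moved with the old label. Of 26 tested members of the macrophage and blood cell list, 22 were at least 2-fold lower in young and 1 was at least 2-fold higher, Cd34. Aif1, a macrophage marker, was also higher in young by the test, with libraries that overlapped, at 18.9 to 26.8 against 7.88 to 26.0. Most of the members that fell were near 0 in young and passed the filter through the other libraries, so their fall was largely set by the filter. The list's median log2 fold change, with the same limit, was -6.21, or -6.02 with genes at 0 set at their bound. The summed level of the 37 members other than Cd34 had a lowest, median and highest value of 1402, 1438 and 1532 in young libraries and of 21873, 24086 and 26723 in old libraries. In rejuvenated old libraries it was between 21507 and 25842. Adgre1 (F4/80) and Ptprc were at 0 in all 6 young libraries. C1qa and C1qc, subunits of complement C1q that macrophages make, were at 1216 ± 92.7 and 1676 ± 119 in old libraries, with ratios of reads of 6952 (95% counting interval 1247 to 274631) and 3201 (95% counting interval 1095 to 15525). Their few reads in young all came from replicate 6. Laptm5, a lysosomal protein of blood cells, was at 1153 ± 95.5 in old and 0.540 ± 0.908 in young libraries.

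Lyz2, the lysozyme of macrophages and granulocytes, held the most counts of the list in old libraries, at 10154 ± 958, against 173 ± 14.4 in young. Some members were read in young libraries as well, among them Csf1r (112 ± 11.8 against 815 ± 54.1 in old) and Cd68 (435 ± 28.3 against 1229 ± 112). Markers of other blood cells such as Cd3e, Cd79a, Mpo and Gata1 were too low to test. Fewer cells of a type and less RNA per cell cannot be told apart in bulk libraries. The part of these cells in the gene lists that fell in young was not tested.

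Of 20 endothelial markers 9 could be tested. Eng, which is also in the stromal list, held the most counts of them in both groups and fell in young. 4 members were at least 2-fold higher and 2 lower in young, with a median of 0.61 that turned to -0.88 among members with a mean of at least 50. Kdr, the main receptor of VEGF-A, was at 85.7 ± 15.7 in young and 9.12 ± 5.55 in old libraries. The defining junction gene Cdh5 was too low to test.

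Bone and fat genes leaned to the old libraries. Of 25 tested osteoblast genes, 15 were at least 2-fold lower and 2 at least 2-fold higher in young, with a median log2 fold change of -2.01. Dlx5, a homeobox factor of bone formation, was at 0.506 ± 0.555 in young and 1022 ± 70.3 in old libraries, a ratio of reads of 1949.7 (95% counting interval 667 to 9457). Sp7 (osterix), which commits cells to bone, was at 2.85 ± 2.02 and 241 ± 31.2. Runx2, the factor upstream of Sp7, differed far less, at 1519 ± 79.3 and 2114 ± 70.7. Spp1 (osteopontin), which macrophages also make, was at 2694 ± 106 in young and 112981 ± 3243 in old libraries. Alpl, the alkaline phosphatase of mineralizing cells, was at 382 ± 45.6 and 1558 ± 50.2. Enpp1, which makes the mineralization inhibitor pyrophosphate, went the other way, at 1452 ± 86.0 and 159.9 ± 15.6.

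Among 19 tested adipocyte genes, 11 were at least 2-fold lower and 4 at least 2-fold higher in young, with a median of -1.76. Adipoq, which encodes the fat hormone adiponectin and marks adipocyte precursors of the marrow, was at 1.58 ± 1.47 in young and 1159 ± 63.6 in old libraries, a ratio of reads of 737 (95% counting interval 388 to 1612). Pparg and Cebpa, the leading factors of fat formation, were at 326 ± 34.1 and 144 ± 14.6 in young and at 4269 ± 71.2 and 4039 ± 190.4 in old libraries. Apoe, a lipid carrier, was higher in young at 3105 ± 249 against 279 ± 18.4. Fasn, the fatty acid synthase, did not pass the test, at 3129.6 ± 177 and 2829 ± 175.

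Cartilage genes were split. Of 14 tested members, 5 were at least 2-fold higher and 6 at least 2-fold lower in young, and the median of -0.43 turned to 0.29 without the genes of chromosomes 1, 7, 12 and 16. Cilp, a cartilage matrix protein, was at 409 ± 36.9 in young and 3.02 ± 1.30 in old libraries, while Col2a1, the main collagen of cartilage, was at 7.89 ± 1.53 and 1724 ± 132. Sox9, the factor that starts cartilage formation, was at 373 ± 21.4 and 604 ± 50.6.

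Contractile genes were mostly lower in young. In the smooth muscle and myofibroblast list, 12 of 23 tested members were at least 2-fold lower and 4 at least 2-fold higher, with a median of -1.13. Acta2, smooth muscle actin, was at 37858 ± 805 in young and 103005 ± 3439 in old libraries, and Des (desmin) at 28.3 ± 7.06 and 2773 ± 83.0. Notch3, a receptor of mural cells, was at 375 ± 38.7 and 5209 ± 329. Itga7, a laminin receptor of muscle, was higher in young at 1384 ± 75.5 against 147 ± 18.1. Skeletal muscle genes were nearly absent, with 3 of 16 tested, 2 higher and 1 lower in young, calls that the filter largely set, and the muscle factors Myod1, Myog, Myf5 and Pax7 too low to test. Of the neural and glial genes 6 of 18 were tested, 1 at least 2-fold higher and 3 at least 2-fold lower in young, and the glial factor Sox10 was too low to test.

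Epithelial genes were few, with 6 of 27 tested, 4 at least 2-fold higher and 2 at least 2-fold lower in young. Msln (mesothelin), a surface protein of the mesothelial lining of body cavities, had a lowest, median and highest value of 5391, 5411 and 6077 in young libraries and was at 0 to 3.23 in old libraries (log2 fold change 11.50, SE 0.64, adjusted p = 8.34e-14). With the 12 young and old libraries alone the SE of Msln was 0.27. Its ratio of reads was 4759 (95% counting interval 2309.6 to 11838). Krt7, a keratin, was at 167 ± 19.1 in young and 4.62 ± 2.66 in old libraries. Other defining genes of epithelium, Epcam, Cdh1, Krt5, Krt8 and Krt14, were too low to test.

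Matrix genes differed in both directions. Of 35 tested collagen chains, 13 were at least 2-fold lower and 6 at least 2-fold higher in young, 7 did not pass the test, and the median was -0.17. The chains of the main fibrils differed little or moderately. Col1a1 was at 99171 ± 5971 in young and 109095 ± 4989 in old libraries, Col1a2 at 171857 ± 5042 and 104079 ± 2525, and Col3a1 at 55313 ± 2229 and 92141 ± 2131. Col6a1, Col6a2 and Col6a3, chains of collagen VI, were lower in young, Col6a2 at 11794 ± 532 against 83254 ± 2128. Col11a1, which seeds thin fibrils, was at 1349.5 ± 70.9 in young and 6.00 ± 1.70 in old libraries, a ratio of reads of 225 (95% counting interval 162 to 322). Col15a1, a collagen of basement membrane zones, was at 5.92 ± 3.80 and 768 ± 76.9, and Col8a1 did not pass the test, at 2416 ± 61.6 and 2354 ± 143.

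Basement membrane genes also differed in both directions. 6 of 19 tested members were at least 2-fold higher and 6 at least 2-fold lower in young, and their median of -0.18 turned to 0.12 once the median of each gene's chromosome was subtracted. Lama2, the laminin chain of muscle and nerve basement membranes, was at 577 ± 30.3 in young and 7.05 ± 3.35 in old libraries. Frem1, a matrix protein of the skin basement membrane, was at 252 ± 32.5 and 2.10 ± 2.23. Smoc1 and Smoc2, calcium-binding relatives of SPARC, went opposite ways. Smoc1 was at 3.72 ± 2.29 in young and 2373 ± 85.6 in old libraries, and Smoc2 at 12049 ± 195 and 195 ± 21.4.

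Small leucine-rich proteoglycans, which coat collagen fibrils, had 4 of 13 tested members at least 2-fold higher in young and 0 at least 2-fold lower. Dcn (decorin) was at 5040.1 ± 215 in young and 269 ± 28.4 in old libraries, Fmod (fibromodulin) at 1852 ± 95.2 and 63.6 ± 10.2, and Bgn (biglycan) at 58943 ± 2689 and 117113 ± 4061. In the elastic fibre list 9 of 19 tested members were at least 2-fold higher and 5 at least 2-fold lower, with a median of 0.94. The microfibril gene Mfap4 was at 283 ± 30.9 in young and 2.21 ± 1.74 in old libraries. Efemp1 (fibulin-3) went the other way, at 1049 ± 26.9 and 28789 ± 1311, and elastin itself was too low to test.

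Matricellular genes, which signal to cells rather than build fibres, were 8 at least 2-fold higher and 10 at least 2-fold lower in young among 26 tested. Thbs2, an inhibitor of vessel growth, was at 286057 ± 8476 in young and 31360.5 ± 2731 in old libraries (log2 fold change 3.19, SE 0.06, adjusted p = 1.01e-22). Vcan (versican), Postn (periostin) and Ccn2 were lower in young, Vcan at 1721 ± 86.3 against 28253 ± 1084. Fn1 (fibronectin) was at 218867 ± 7089 in young and 163951 ± 5535 in old libraries. Collagen-modifying enzymes stood near the background, with 3 of 21 at least 2-fold higher and 4 at least 2-fold lower. Among them Loxl1, a crosslinking enzyme, was at 2219.6 ± 82.5 and 11264 ± 405, and Serpinh1, a collagen chaperone, did not pass the test, at 19741 ± 1014 and 19755 ± 662.

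Of 42 tested matrix proteases and inhibitors, 17 were at least 2-fold lower and 13 at least 2-fold higher in young. Mmp13, the collagenase of bone and cartilage, was at 19.6 to 39.1 in young and 5599 to 6507 in old libraries (log2 fold change -7.61, SE 0.11, adjusted p = 4.36e-25). Mmp12, the elastase of macrophages, was at 0.695 ± 0.846 and 671 ± 26.7. The macrophage markers fell in the same libraries, and their part in this was not tested. Mmp2, a gelatinase of stromal cells, was at 1498 ± 79.4 and 45818 ± 1244, and Htra1, a serine protease, was higher in young at 8928 ± 372 against 532 ± 39.0. Among 26 tested genes of the integrin list, 11 were at least 2-fold higher and 5 at least 2-fold lower in young. Itgbl1, a secreted protein with integrin-like repeats, was at 10509.7 ± 322 in young and 6.44 ± 3.82 in old libraries, a ratio of reads of 1618 (95% counting interval 1184 to 2276). Itga3 was higher in young at 4966 against 393, while the shared partner Itgb1 was at 27811 ± 730.4 and 29448 ± 1140.2.

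**Figure D2:**
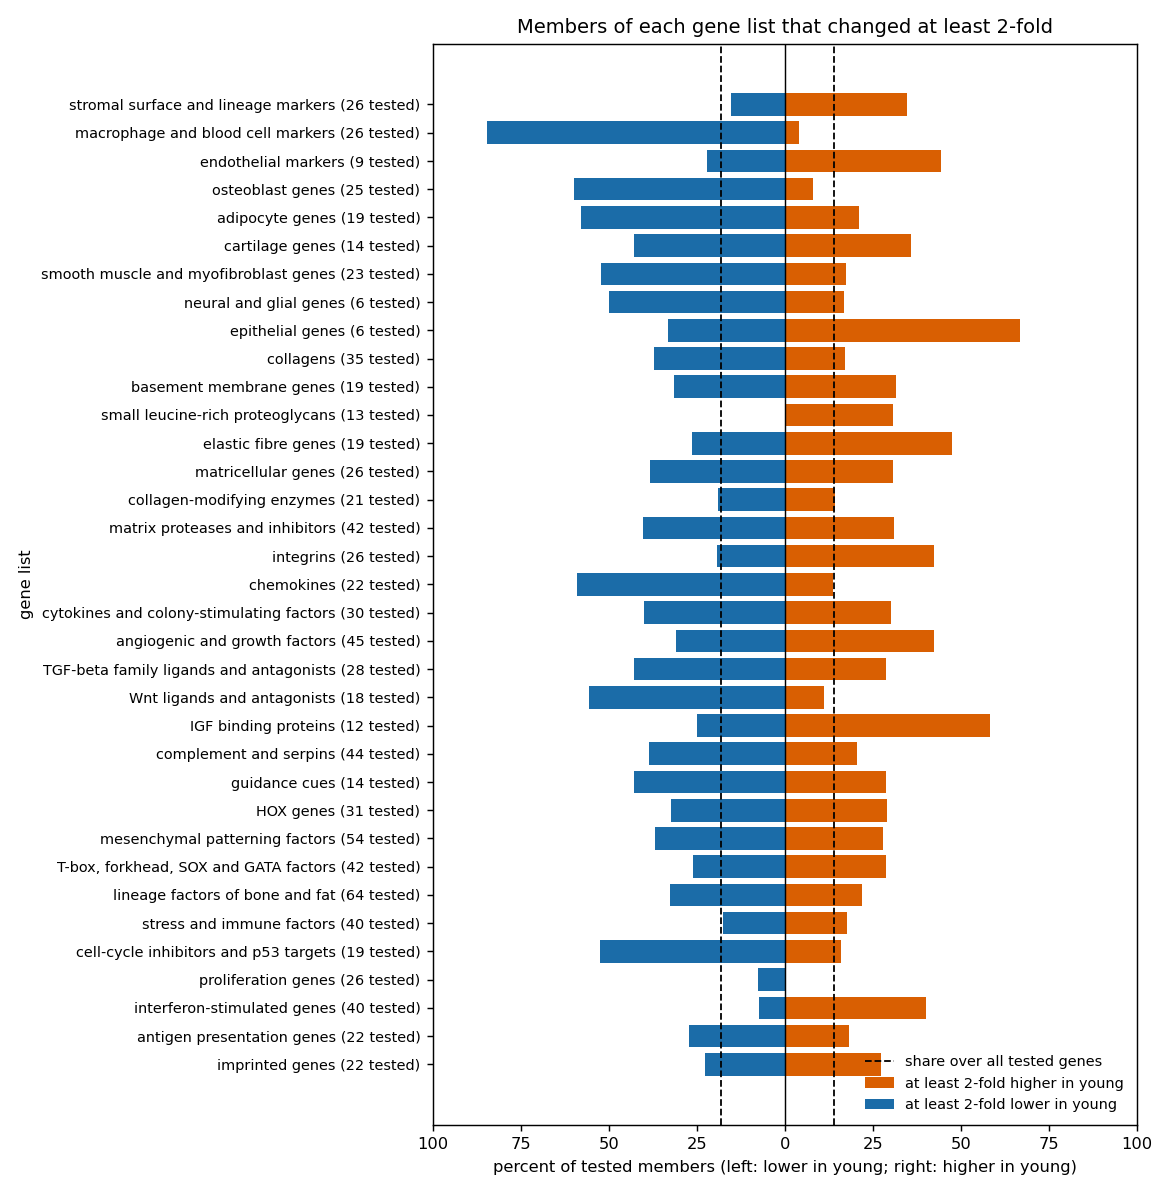
Percent of tested members of each gene list that were at least 2-fold higher (right) or lower (left) in young libraries at an adjusted p under 0.05, with dashed lines at the shares over all tested genes, 13.8% and 18.1%. Macrophage and blood cell markers reach farthest to the left, with 22 of 26 members, most of which passed the filter on low values through libraries other than the young ones.

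The secreted factors measured as proteins in the study moved in different ways at the RNA level. Vegfa, the main growth factor of vessels, was at 7552 ± 556 in young and 8422 ± 182 in old libraries, and its groups overlapped (log2 fold change -0.16, SE 0.05, adjusted p = 0.00765). That difference lost the call when libraries were scaled to the same total or by quantiles, or tested by edgeR without 2 libraries. Igf1, a growth factor for many cell types, was higher in young, with a lowest, median and highest value of 3069, 3473 and 3539.6 against 1849, 2024 and 2128 in old. Cxcl12 (Entrez gene 20315, chr6:117168535-117181368), which keeps blood stem cells in the marrow, was far higher in old libraries, at 185514, 197597 and 207265 against 8970.3, 9215 and 9438 in young. No young library came near an old one for Cxcl12 (log2 fold change -4.42, SE 0.05, adjusted p = 8.53e-27).

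**Figure D3:**
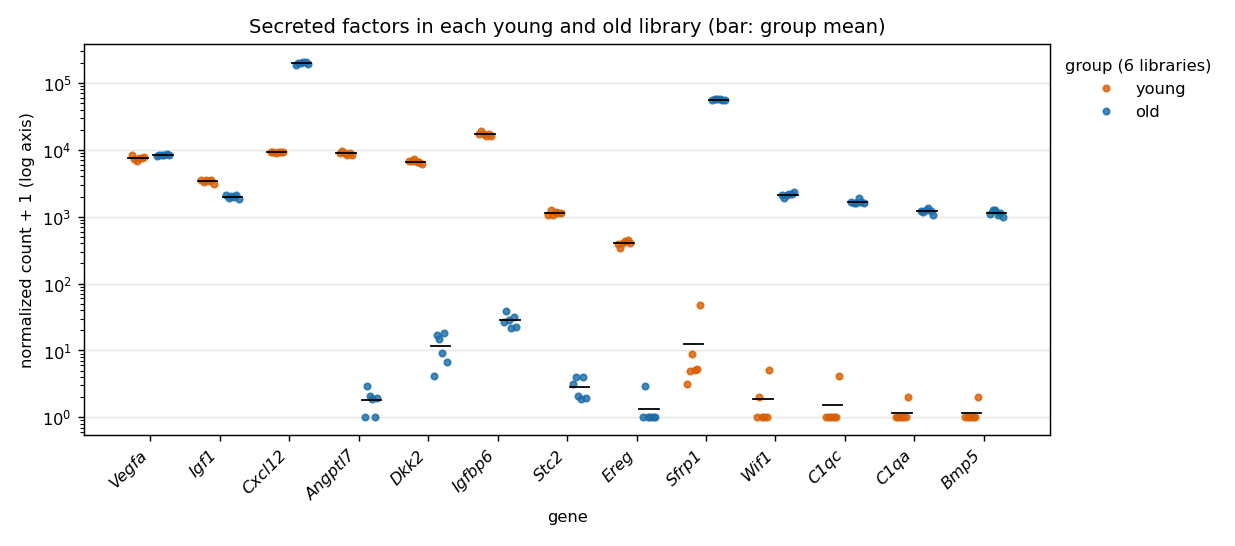
Normalized count + 1 (log axis) of 13 secreted factors in each of the 6 young and 6 old libraries, with a bar at the group mean. Cxcl12 lies at 185514 to 207265 in old and at 8970.3 to 9438 in young libraries, while Vegfa overlaps.

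Of 22 tested chemokines, 13 were at least 2-fold lower and 3 at least 2-fold higher in young, with a median of -1.43. The macrophage chemokines Ccl3, Ccl4 and Ccl6 were at 149, 126 and 369.7 in old and at 0.186, 0.358 and 2.78 in young libraries, beside the macrophage markers. Ccl8 went the other way, at 188 ± 30.7 in young and 2.32 ± 1.33 in old libraries. Cxcl10, an interferon-induced chemokine, did not pass the test, at 120.1 ± 42.5 and 86.0 ± 70.9.

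Cytokines of blood cell formation moved in both directions. Il7, which B-cell precursors need, was at 10.1 ± 7.60 in young and 994 ± 94.1 in old libraries, Kitl (stem cell factor) at 1422 ± 59.9 and 10815 ± 603, and Csf1, the growth factor of macrophages, at 7625 ± 529 and 42908 ± 1086. Flt3l, a growth factor of early blood cells, was higher in young, at 220.1 to 324 against 98.0 to 134. Il16 and Il33 were also higher in young, Il16 at 3779.6 ± 99.7 against 48.1 ± 9.53. Over the 30 tested cytokines, 12 were at least 2-fold lower and 9 at least 2-fold higher in young.

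Angiogenic and growth factors leaned to the young libraries, with 19 of 45 tested members at least 2-fold higher and 14 at least 2-fold lower, and a median of 0.59. Vegfd, a factor of lymph vessels, was at 15901 ± 547 in young and 2589 ± 116 in old libraries. Ereg, a ligand of the EGF receptor, was at 402 ± 36.5 and 0.328 ± 0.804, a ratio of reads of 1207 (95% counting interval 334 to 9975). Among those lower in young were Angpt1, which steadies vessels, at 133 ± 15.5 against 4622 ± 277, and Hgf at 167 ± 29.9 against 3135 ± 133. Apln (apelin) did not pass the test, at 232 ± 27.4 and 231 ± 20.6.

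Among 28 tested genes of the TGF-beta family and its antagonists, 12 were at least 2-fold lower and 8 at least 2-fold higher in young. Bmp5, a bone morphogenetic protein, was at 1134 ± 109 in old libraries and had 1 read in all young libraries together, a ratio of reads of 6463 (95% counting interval 1159.7 to 255326). Chrdl1, a BMP antagonist, was at 991 ± 63.2 in young and 5.68 ± 2.38 in old libraries. Tgfb1 was at 591 ± 27.9 and 1112 ± 34.1.

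Wnt ligands and antagonists leaned to the old libraries, with 10 of 18 tested members at least 2-fold lower and 2 at least 2-fold higher in young, and a median of -1.53. Wif1, a secreted inhibitor that binds Wnt proteins, was at 2143 ± 137 in old and 0.852 ± 1.65 in young libraries. Sfrp2 and Sfrp4 followed Sfrp1, at 16093 and 6713 in old and 561 and 142 in young libraries. Dkk2, another Wnt antagonist, went the other way, at 6675 ± 370.2 in young and 10.7 ± 5.72 in old libraries (log2 fold change 9.34, SE 0.31, adjusted p = 4.74e-18). Dkk3, a relative of Dkk2, was read in both groups and was lower in young, at 3508 ± 105 against 14519 ± 318.

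Proteins that bind insulin-like growth factors or free them were mostly higher in young, 7 of 12 tested members at least 2-fold higher and 3 at least 2-fold lower, with a median of 1.84. Igfbp6 was at 17219 ± 1049.6 in young and 27.4 ± 6.29 in old libraries, and Igfbp4 at 21364 ± 581 and 4929 ± 224. Stc2 (stanniocalcin-2), which blocks the protease that frees IGF, was at 1129 ± 74.8 and 1.84 ± 0.993, while the protease Pappa was at 76.2 ± 12.5 and 1631 ± 92.0. Complement and serpin genes had 9 of 44 tested members at least 2-fold higher and 17 at least 2-fold lower in young. C3, the central complement protein, was at 11449 ± 409.6 in young and 264 ± 22.6 in old libraries. Of 14 tested guidance cues, 4 were at least 2-fold higher and 6 at least 2-fold lower in young, with a median of -0.79 that turned to 0.31 among members with a mean of at least 50. Sema3a, a repellent of axons and endothelial cells, was at 12067 ± 357 in young and 170.1 ± 25.7 in old libraries.

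The HOX genes differed by cluster. The limit from members near 0 in one group bears on the counts for Hoxb and Hoxd. All 8 tested genes of the Hoxb cluster on chromosome 11 were at least 2-fold higher in young, with log2 fold changes from 2.77 to 9.91 and a median of 7.81. These fitted values depend on the added count of 1 where a group has few reads. All 4 tested Hoxd genes on chromosome 2 were at least 2-fold lower in young, with a median of -5.51. Of 10 tested Hoxa genes on chromosome 6, 3 were at least 2-fold lower and 0 higher, and of 9 tested Hoxc genes on chromosome 15, 1 was at least 2-fold higher and 3 lower. Over the whole family 9 of 31 tested members were at least 2-fold higher and 10 at least 2-fold lower in young, and the median of 0.07 turned to -0.13 once chromosome medians were subtracted.

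Hoxb9 had a lowest, median and highest value of 2904, 3091 and 3168 in young and 1.00, 1.98 and 5.45 in old libraries (log2 fold change 9.91, SE 0.72, adjusted p = 1.12e-11). Its standard error fell to 0.25 in the fit without the 6 rejuvenated old libraries. Hoxb8, Hoxb7 and Hoxb6 had means of 612, 364 and 327 in young libraries and 3, 2 and 3 reads in all old libraries together. Hoxa11, a factor of the lower arm and leg, had 449, 463 and 477 in old libraries and 3 reads in all young libraries together, a ratio of reads of 884 (95% counting interval 302 to 4288). Hoxd9 was at 0 in all young libraries and at 208 ± 12.1 in old ones, at least 66.0-fold lower in young. The 2 tested members that did not pass the test were Hoxc10, at 4249.7 ± 118 and 4064 ± 238, and Hoxa10, at 2546 ± 78.9 and 2680.4 ± 106. Hoxc8 and Hoxc9 had large values in both groups as well and were higher in young, Hoxc9 at 2025 ± 84.6 against 1039 ± 62.5.

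**Figure D4:**
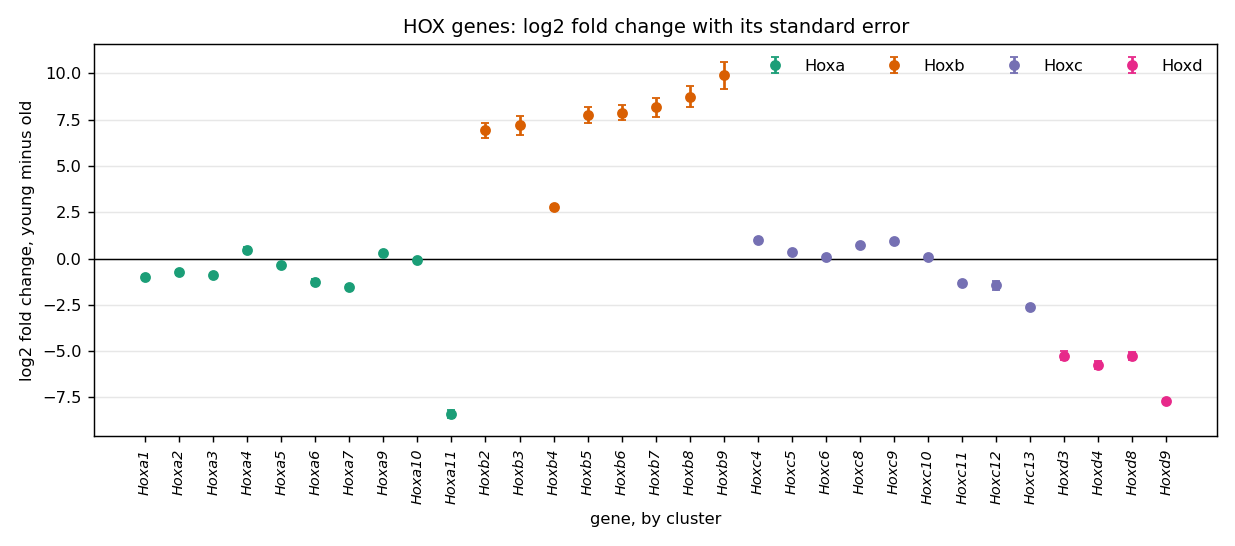
Log2 fold change (young minus old) of each of the 31 tested HOX genes with its standard error as bars, coloured by cluster. Hoxb genes lie between 2.77 and 9.91 and Hoxd genes between -7.71 and -5.25.

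Promoters are shown for genes that were near 0 in one group (Hoxb8, Hoxa11) or differed widely (Cd34, Cxcl12). Each is a window of 300 bases around a start site in the RefSeq table of build GRCm38.p6, most of it before the start. The one of Hoxb8 belongs to an annotated start inside the gene. Capitals mark the TATA box letters TATAAA, the CCAAT box letters CCAAT and the GC box letters GGGCGG, on either strand.
Hoxb8, chr11:96281655-96281954, plus strand: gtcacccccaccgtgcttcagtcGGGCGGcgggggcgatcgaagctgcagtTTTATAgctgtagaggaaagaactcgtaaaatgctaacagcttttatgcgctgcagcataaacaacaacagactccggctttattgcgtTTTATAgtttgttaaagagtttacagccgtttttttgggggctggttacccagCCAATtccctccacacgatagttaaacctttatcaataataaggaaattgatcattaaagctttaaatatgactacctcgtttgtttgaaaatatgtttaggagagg
Hoxa11, chr6:52245761-52246060, minus strand: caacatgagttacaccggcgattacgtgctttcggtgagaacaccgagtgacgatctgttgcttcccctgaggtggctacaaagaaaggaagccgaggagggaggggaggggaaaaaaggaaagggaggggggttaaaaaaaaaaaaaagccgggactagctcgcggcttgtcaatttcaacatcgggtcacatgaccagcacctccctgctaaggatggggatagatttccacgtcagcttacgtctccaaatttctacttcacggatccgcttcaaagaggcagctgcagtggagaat
Cd34, chr1:194938571-194938870, plus strand: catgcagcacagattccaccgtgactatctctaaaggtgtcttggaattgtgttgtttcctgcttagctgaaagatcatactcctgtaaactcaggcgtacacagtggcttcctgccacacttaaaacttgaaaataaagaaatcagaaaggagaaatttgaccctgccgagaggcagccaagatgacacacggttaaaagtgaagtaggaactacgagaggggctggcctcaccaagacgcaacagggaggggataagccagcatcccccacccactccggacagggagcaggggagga
Cxcl12, chr6:117168285-117168584, plus strand: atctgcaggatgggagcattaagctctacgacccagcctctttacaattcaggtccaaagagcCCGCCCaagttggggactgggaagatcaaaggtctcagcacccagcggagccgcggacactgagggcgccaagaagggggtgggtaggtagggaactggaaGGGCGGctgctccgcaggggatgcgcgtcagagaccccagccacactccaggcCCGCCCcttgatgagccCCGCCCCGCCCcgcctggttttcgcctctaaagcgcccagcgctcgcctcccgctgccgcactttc
The Hoxb8 window held TATAAA 2 times, CCAAT 1 time and GGGCGG 1 time, counting both strands, and 13 CG pairs. The Cxcl12 window held GGGCGG 5 times and 20 CG pairs. No match to these letters lies in the windows of Hoxa11 and Cd34, which held 15 and 7 CG pairs. Over all 32851 windows of this length, 13.6% held TATAAA, 37.4% CCAAT and 35.7% GGGCGG, and the median number of CG pairs was 7.

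Other factors of mesenchymal patterning also parted the groups. Of 54 tested members, 20 were at least 2-fold lower and 15 at least 2-fold higher in young. Pitx1, the homeobox factor that sets hindlimb identity, was at 1317 to 1475 in old libraries and had 1 read in all young libraries together, a ratio of reads of 7884 (95% counting interval 1415 to 311439). Pax3, a factor of somite and neural crest derivatives, was at 0 in all young libraries and at 203 ± 11.5 in old ones, at least 64.3-fold lower. Nkx2-5, best known from the heart, had 1036 ± 42.3 in young libraries and 2 reads in all old libraries together. Scx, a tendon factor, was higher in young at 1213 ± 40.8 against 34.3 ± 5.35. Prrx1, a general factor of limb mesenchyme, was read in both groups at 13533 ± 267 and 21926 ± 503.

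In the T-box, forkhead, SOX and GATA families 12 of 42 tested members were at least 2-fold higher and 11 at least 2-fold lower in young. Tbx4, a T-box factor of the hindlimb and lung, was at 117 ± 10.6 in young and 0.303 ± 0.742 in old libraries, and Foxf1 at 233 ± 25.3 and 1.34 ± 1.21. Foxc1, which maintains marrow stromal cells that make Cxcl12, was lower in young at 2069 ± 68.2 against 6463 ± 273. Among lineage factors of bone and fat, 21 of 64 tested members were at least 2-fold lower and 14 at least 2-fold higher. Ebf1 and Epas1 were lower in young, Ebf1 at 48.6 ± 6.67 against 1175 ± 102 and Epas1 at 61.1 ± 7.00 against 7351 ± 241. Klf5 was higher in young at 186 ± 28.8 against 1.43 ± 1.40, and Hif1a did not pass the test, at 4441 ± 253 and 4130.4 ± 359.

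Stress and immune factors stood near the background, 7 at least 2-fold higher and 7 lower in young among 40 tested, and their median of -0.01 changed sign with the scaling. Irf7, a factor of the interferon response, was higher in young at 7061 ± 2659 against 1029.5 ± 742. Spi1, which directs macrophage formation, was at 4.38 ± 1.88 in young and 209 ± 20.1 in old libraries.

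The genes of some chromosomes leaned one way. Each library's chromosome median was taken over its tested genes, as log2 values centred on the mean of the 12 libraries and relative to the autosomes of that library. Chromosome 16 was lower in young by the most among autosomes, between -0.37 and -0.34 in young and between 0.34 and 0.39 in old libraries. The difference was -0.71 for chromosome 16, -0.64 for chromosome 1 and -0.43 for chromosome 12, and 0.63 for chromosome 7. The groups did not overlap, and each of the 22 chromosomes tested, the mitochondrial one included, gave p = 0.00216 in the two-sided exact permutation test, the smallest that all assignments of the 12 libraries can give (adjusted p = 0.00216). Differences as small as the -0.02 of chromosome 19 gave that p as well, so p does not rank the chromosomes. In windows of 20 Mb with at least 20 tested genes, all 10 of chromosome 1, all 6 of chromosome 12 and all 5 of chromosome 16 were below the autosomal median, and all 8 of chromosome 7 above it. The windows of chromosomes 8, 14, 15 and 17 also lay all above and those of chromosome 18 all below, while those of the other 10 autosomes went both ways, on chromosome 10 from -0.82 to 0.17.

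Chromosome 1 carries Cd34, Ifi202b and Ptprc, which moved in both directions, and chromosome 7 carries Aplp1, which fell. The part of the chromosome shifts in the results for single genes was not tested. Without the genes of chromosomes 1, 7, 12 and 16, 1534 genes were at least 2-fold higher and 1913 lower in young among 11579 tested. Copy number was not measured.

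**Figure D5:**
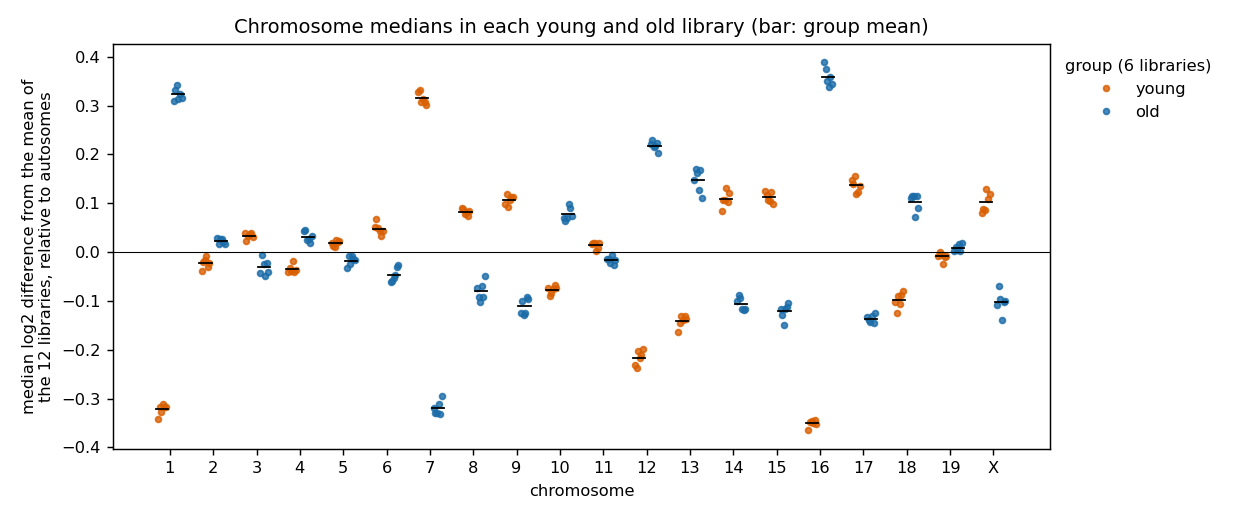
Median log2 difference of the genes of each chromosome from the mean of the 12 libraries, relative to the autosomes of the same library, for the 6 young and 6 old libraries, with a bar at the group mean. Among autosomes, young libraries lie lowest for chromosome 16 (-0.37 to -0.34) and highest for chromosome 7 (0.30 to 0.33).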

How the data were processed

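RNA of 18 mouse MSC libraries (6 young, 6 old, 6 rejuvenated old) was sequenced from stranded mRNA libraries. The deposited values are a signal, normalized counts: per the labels and the methods, the authors aligned reads to mm10 with HISAT2, counted them with StringTie and featureCounts and divided by DESeq2 size factors. Versions were not given in the sources used here. Gene identifiers were matched to RefSeq symbols and GRCm38.p6 positions, the build of mm10, for 25275 of 27179 genes.

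Genes with a mean of at least 10 were tested on log2(value + 1), which understates changes of low genes, with limma 3.58.1 (R 4.3.3) over all 3 groups, with a trended prior variance and Benjamini-Hochberg adjustment over 14353 genes. Whole reads were recovered (100% of values within 0.01 of a read) and tested with edgeR 4.0.16 and DESeq2 1.42.0 as alternatives. For 2 libraries, young replicate 2 and old replicate 5, 1 read is worth within 0.5% of 1, which left recovery there without a separate check, so edgeR was also run without them, a choice made after seeing the data. edgeR called 12276 genes. The 3 tests were also run on simulated data in which few genes differed. That check does not cover data in which most genes differ, as here.

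A gene at 0 in a whole group was given a bound against 3 reads per library. Genes with few reads in a group have a ratio of pooled reads with an exact binomial 95% interval, which covers counting error only. Within groups, no pair of libraries agreed within sampling noise (chi-square per degree of freedom 2.57 to 16.6 in young and old).

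Gene lists describe identity, matrix, secreted factors, transcription factors and cell state, and no set test was run. Named genes were fixed (surface markers, assayed factors, sex-linked genes, Nnt), or were the 5 largest rises and falls per block of lists and over all genes, with an adjusted p under 0.05, libraries that did not overlap, a mean of at least 100 in the higher group and no predicted genes. Further examples are list members, some chosen after their values were seen. Members and lists were chosen with earlier results of these data known.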

Additional observations from a re-analysis of the deposited data

Results flagged for a closer look

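Among 155 sets of 6 libraries (depth, named genes with a group mean of at least 10, summed list levels and medians of 4 chromosomes), 8 held a library whose gap to the next one, as a share of the group's range, passed Dixon's 95% critical value. That is 5.16% of the sets, and chance flags about 1 in 20. Genes with a group mean under 10 were left out of these sets.

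In young replicate 6, Sfrp1 was at 46.3 and Gpx3 at 91.6, against next highest values of 7.82 and 21.9 in the other young libraries. All young reads of C1qc, C1qa, Bmp5, Kng1, Ddx3y and Kdm5d were in this library, 1 to 3 per gene, and it was also the highest for Wif1 and Eif2s3y. Other named genes near 0 in young had no read in replicate 6. Pitx1 was read only in young replicate 1, Laptm5 in 1 and 5, and Hoxa11 in 3 and 5. Among 72 genes that averaged 1000 or more in old and were at least 32-fold lower in young, replicate 6 was the highest young library for 24, against 18 for replicate 1 and 4 to 11 for the others, and held a read of 67 against 53 to 57. By the median percent of the old mean replicate 1 was highest, at 0.501 against 0.483 in replicate 6, and by summed level replicate 3, at 5325 against 5317. This count was chosen after the values were seen, and the difference was not tested. Without young replicate 6, 12175 genes were called. Msln was at 6077 in young replicate 2, next to 5549, and the summed HOX genes at 25417 in young replicate 1, next to 23380. Among old libraries the highest value of C1qc was 1912, next to 1676, and that of Gria3 3422, next to 3242. The summed mesenchymal patterning factors were lowest at 66742 in old replicate 6, next to 68651. The summed antigen presentation genes were highest at 76711 in old replicate 2, next to 57816.

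The rejuvenated old libraries, whose level enters neither side of the comparison of young and old, held reads of genes that mark the young libraries. Of 42 genes with a mean of at least 1000 in young and at least 32-fold higher there than in old, 10 had all 6 rejuvenated old libraries above all 6 old libraries and 1 had all below. Their median level was 2.85% of the young mean in rejuvenated old replicate 1, with 38 of the 42 above every old library, and between 0.48% and 0.67% in the other replicates, with 16 to 24 of the 42 above every old library. In old libraries it was 0.46%. The 42 genes were chosen for low values in old libraries, and the counts stand without the share over all tested genes. Whether they are unusual cannot be read from them. The difference was not tested.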

How the results depend on the processing

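Limma's treat tests against a fold change of 2 and is given apart. Under the other alternatives no count of called genes over the whole table moved by more than 1.5 times, and no named gene changed direction. Counts within single lists were less stable. Those at least 2-fold higher moved in 17 lists under some alternative, and those at least 2-fold lower in 10. The number differing between young and old was between 12141 and 12183 with any 1 young or old library left out. In the remaining settings except treat it was between 9804 (without chromosomes 1, 7, 12 and 16) and 14283 (without a filter on low values). At least 2-fold higher in young were 1962 to 1986 genes with a library left out and 1419 (mean of at least 50) to 2848 (no filter) otherwise. At least 2-fold lower were 2592 to 2608 and 1894 to 3441. Treat called 3659 of 14353 genes, 1520 higher and 2139 lower in young. DESeq2 called 12259 genes. Scaling moved the median of all genes from -0.02 to at most 0.05. The share of calls higher in young was 48.5%, and 52.8% at most. DESeq2 gave no adjusted p for 21 genes, 10 of them named here.

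The labels tie same-numbered libraries by number only, and whether they shared a day or preparation was not stated. Their deviations from the group means correlated between -0.12 and 0.06, and with the replicate block 12219 genes were called. Treat and values without an adjusted p were left out of the recomputed values of named genes. Of the 1545 that remained, 3 lost the call, all of Vegfa. They were -0.09 with the same total, -0.10 with quantile normalization and -0.13 with edgeR without 2 libraries, and the cause was not tested. The median changed sign under some alternative for 10 of 37 lists. Chromosome 1 ranged from -0.66 to -0.48, chromosome 7 from 0.48 to 0.64, chromosome 12 from -0.44 to -0.32 and chromosome 16 from -0.72 to -0.57. Depth limits what is read from genes near 0, whose bounds and intervals rest on few reads.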

Other observations

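Genes of cell state moved in both directions, and fewer of some lists were free of overlap than the 73.9% of all genes, such as 10 of 40 interferon-stimulated genes. Of 19 tested cell-cycle inhibitors and p53 targets, 10 were at least 2-fold lower and 3 at least 2-fold higher in young (background 18.1% and 13.8%). The p53 targets Cdkn1a (p21) and Mdm2 were at 2381 ± 127 and 1582 ± 36.0 in young and at 17769 ± 632 and 12259 ± 366 in old libraries. Cdkn2a, whose locus encodes p16 and p19Arf, went the other way, at 17851 ± 600.2 in young and 6039.7 ± 319 in old libraries. Cdkn1c (p57) was at 399.6 ± 20.0 and 1.01 ± 0.895. Proliferation genes differed little, with 0 of 26 at least 2-fold higher and 2 lower in young. By the test alone 14 were lower and 5 higher in young, and 7 did not pass. Mki67 was at 1192 ± 175 in young and 959 ± 133 in old libraries. The largest fall among them was in Rrm2, a subunit of ribonucleotide reductase, at 259 ± 42.3 against 4415 ± 276.

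Interferon-stimulated genes were at least 2-fold higher in young for 16 of 40 members and lower for 3, and 13 did not pass the test. Their summed level varied within groups, from 77111 to 147117 in young and from 42621 to 157964 in old libraries, so the groups overlapped. Mx1 was at 428 ± 133 in young and 31.0 ± 31.0 in old libraries. Of 22 antigen presentation genes, 4 were at least 2-fold higher and 6 lower. Within the class I genes, H2-K1 was higher in young at 7177 ± 775 against 2079 ± 469.9 and H2-D1 lower at 1104 ± 234 against 3689 ± 461. These genes are near-identical copies in part, so their reads may be shared. Imprinted genes were 6 at least 2-fold higher and 5 lower among 22 tested. Dlk1 was at 12122 ± 543 in young and 11.4 ± 4.01 in old libraries, and Ndn at 274 ± 30.8 and 3383 ± 119.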
